A study of Mus musculus with 9 samples.

Results

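In the mouse, 10 type I interferon response genes were described in dissected nigral tissue: Irf7, Irf9, Stat2, Isg15, Ifit1, Ifit3, Usp18, Oasl2, Rsad2 and Bst2. They were chosen by name, and their symbols were matched to the gene identifiers of the files through GENCODE M21. All 10 of 10 were found among 55450 genes, and all 10 passed the filter on low counts, as did 20892 genes in total. RNA was sequenced in 9 libraries of 3 groups, with 3 libraries each. The CTR group was CX3CR1-CreERT2 mice given a Cre-dependent lentiviral control vector, for which the labels read GFP and the paper destabilized GFP. The CX3 group was CX3CR1-CreERT2 mice, whose inducible recombinase is driven by the promoter of a microglial and myeloid gene, given a Synuclein-expressing vector of the same Cre-dependent design. The DAT group was DAT-Cre mice, whose recombinase is driven by the promoter of the dopamine transporter gene, given that same vector. The labels write 3xCX3-Cre and 3xDAT-Cre for these groups without saying what the 3x counts, and the number of animals behind each library is not stated. All groups were injected in the substantia nigra, and the tissue was taken 5 weeks after transduction. Tamoxifen was given for 4 days after surgery to CX3CR1-CreERT2 mice only, so that the DAT and CTR groups differed in the mouse line, the vector and tamoxifen, and these cannot be told apart. Mice were transduced at 8 weeks of age according to the results of the study, and its methods give 9 weeks for the males that were purchased.

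Type I interferons are secreted proteins that bind the receptor formed by Ifnar1 and Ifnar2 on nearly every cell. The receptor kinases Jak1 and Tyk2 then phosphorylate Stat2, which joins Irf9 in a complex that binds the interferon-stimulated response element and switches on a broad set of antiviral genes. In the brain, microglia, astrocytes and infiltrating leukocytes are all able to mount this response, and Irf7, Stat2 and Irf9 are themselves among its targets.

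The 9 libraries held between 21592817 and 39475428 counts on genes, and a member had between 265 and 9666 counts in a library. Levels are given as CPM, counts scaled to a common library size by the trimmed mean of M-values, in which 3 counts equal 0.0779 to 0.151 CPM. Libraries of the CTR group differed little beyond sampling, with squared differences 1.46 to 1.79 times those of random draws. Within the CX3 group the ratio was 2.52 to 6.28, and within the DAT group it was 2.25 between DAT A and DAT C but 16.5 and 12.1 for the pairs with DAT B, so that DAT B stood apart from the other libraries of its group. The p-values therefore measure the spread between these libraries, which may be technical. In tissue RNA, fewer cells of a type and less RNA per cell cannot be told apart.

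The promoters are shown first because the members were chosen as genes of the pathway that acts through the response element. A link between these letters and the changes in level was not tested. RefSeq windows of 250 bases before and 50 after the transcription start (GRCm38.p6) were found for 9 of the 10 genes, and not for Usp18. A core of the element, GAAANNGAAA or TTTCNNTTTC when it lies on the opposite strand, was present in 6 of these 9 genes, against 3.44% of 32851 promoter windows. The core is in capitals in the following stretches, which are written 5′ to 3′ on the strand of the gene.
Isg15, chr4:156200845-156200926, minus strand: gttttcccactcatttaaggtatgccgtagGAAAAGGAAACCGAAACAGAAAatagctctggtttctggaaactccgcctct
Ifit1, chr19:34640755-34640843, plus strand: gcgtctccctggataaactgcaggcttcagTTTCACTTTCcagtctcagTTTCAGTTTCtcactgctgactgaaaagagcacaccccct
Ifit3, chr19:34583343-34583446, plus strand: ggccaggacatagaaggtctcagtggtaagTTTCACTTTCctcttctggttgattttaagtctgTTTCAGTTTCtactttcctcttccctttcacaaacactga
Rsad2, chr12:26456533-26456602, minus strand: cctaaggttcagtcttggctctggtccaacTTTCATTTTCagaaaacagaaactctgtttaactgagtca
Bst2, chr8:71537557-71537632, minus strand: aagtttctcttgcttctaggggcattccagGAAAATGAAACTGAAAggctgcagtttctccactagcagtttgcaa
Stat2, chr10:128270248-128270315, plus strand: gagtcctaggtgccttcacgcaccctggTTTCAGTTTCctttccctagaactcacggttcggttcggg

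Isg15 held 3 overlapping cores that began 78, 72 and 66 bases upstream of the start, and Bst2 held 2 overlapping cores that began 130 and 124 bases upstream. Ifit1 and Ifit3 each held 2 separate cores on the opposite strand, at 104 and 85 and at 156 and 122 bases. Rsad2 had 1 core at 120 bases, and that of Stat2 lay farther out, at 222 bases. These letters were not in the windows of Irf7, Oasl2 or Irf9, the last with 2 start sites. The core of the gamma-activated site, TTCNNNGAA, an element of promoters that respond to interferon-gamma, was found in Bst2 alone of the 9 genes, 136 bases upstream and overlapping its first response element core, against 8.3% of all windows. A match describes these letters and not a bound site.

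**Figure D1:**
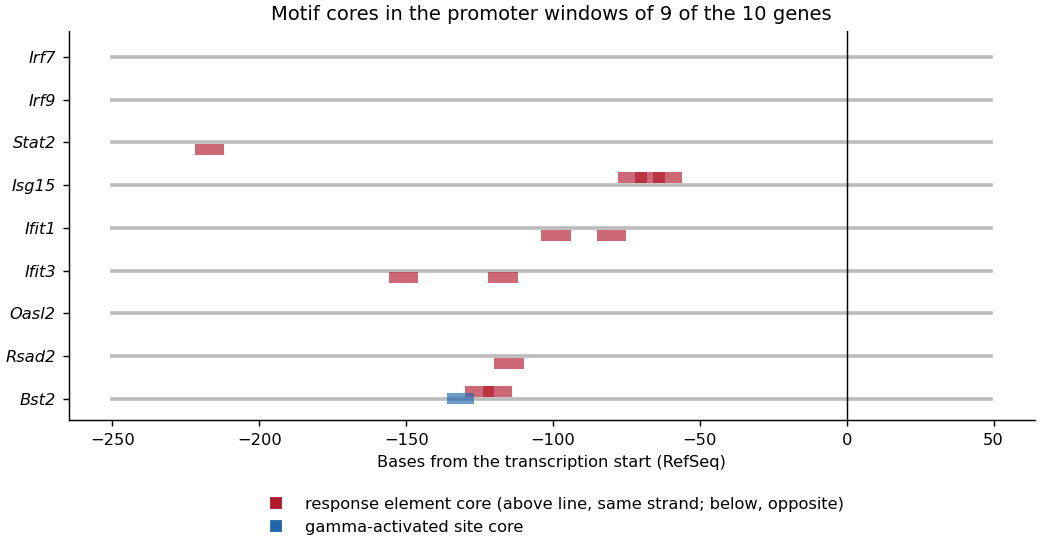
Positions of the motif cores in the promoter windows of 9 of the 10 genes, in bases from the RefSeq transcription start, with response element cores in red (above the line on the strand of the gene, below it on the opposite strand) and the gamma-activated site core in blue. The 6 genes with a response element core carry it between 222 and 66 bases upstream, and the windows of Irf7, Irf9 and Oasl2 are empty.

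Among the transcription factors, Irf7, which amplifies interferon production (ENSMUSG00000025498.15, chr7:141262706-141266481, minus strand), had 71.2, 72.6 and 74.5 CPM in CTR A, B and C. It had 43.5, 40.6 and 43.6 CPM in CX3 and 33.3, 35.4 and 29.8 CPM in DAT. The groups did not overlap, with CTR highest and DAT lowest. The log2 fold change was −0.77 ± 0.0578 (SE) in CX3 against CTR (edgeR's quasi-likelihood test, Benjamini-Hochberg adjusted p = 2.74e-07), and −1.15 ± 0.0605 in DAT against CTR (adjusted p = 1.33e-09). CX3 was 1.3-fold above DAT (log2 0.38 ± 0.0611, adjusted p = 0.000105).

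Irf9, the DNA-binding subunit of the interferon complex (ENSMUSG00000002325.15, chr14:55603571-55610030, plus strand), had 69.2, 70.7 and 72.8 CPM in CTR, 55.0, 55.9 and 55.3 in CX3 and 29.6, 33.2 and 29.1 in DAT. CX3 thus lay closer to CTR than to DAT. The log2 fold change was −0.35 ± 0.0511 in CX3 against CTR (adjusted p = 0.00014), −1.21 ± 0.0545 in DAT against CTR (2.72e-10) and 0.86 ± 0.0545 in CX3 against DAT (9.01e-09). Its annotation shares 2.28% of its exon bases with Rnf31 on the same strand.

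Stat2, the other subunit particular to type I and type III signalling (ENSMUSG00000040033.16, chr10:128270559-128292849, plus strand), had 70.4, 70.0 and 70.6 CPM in CTR, 66.4, 67.0 and 68.5 in CX3 and 42.3, 41.8 and 42.7 in DAT. The CX3 values were below all CTR values by a few percent, and the difference did not pass the test (log2 −0.06 ± 0.0413, adjusted p = 0.274). DAT was clearly lower than both groups, with log2 fold changes of −0.73 ± 0.0431 against CTR (adjusted p = 4.07e-09) and 0.67 ± 0.043 for CX3 against DAT (adjusted p = 9.94e-09).

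Usp18, the protease that removes Isg15 from proteins and dampens the receptor (ENSMUSG00000030107.10, chr6:121245906-121270917, plus strand), had 43.7, 43.8 and 42.9 CPM in CTR, 19.3, 21.2 and 18.2 in CX3 and 13.5, 15.5 and 13.5 in DAT. It fell by more than 2-fold in both groups against CTR. The log2 fold changes were −1.15 ± 0.0642 in CX3 (adjusted p = 1.25e-08) and −1.62 ± 0.0693 in DAT (1.69e-10), and CX3 was above DAT by 0.47 ± 0.0721 (6.06e-05). Of its exon bases, 4.44% are shared with Gm44148 on the opposite strand.

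Isg15, a ubiquitin-like protein that is attached to other proteins (ENSMUSG00000035692.6, chr4:156199424-156200818, minus strand), had 37.2, 38.4 and 37.6 CPM in CTR and 20.5, 21.7 and 20.1 CPM in CX3. The DAT libraries had 11.4, 16.2 and 11.6 CPM, with the high value in DAT B, the library that stood apart. The log2 fold change was −0.86 ± 0.0887 in CX3 against CTR (adjusted p = 6.32e-06) and −1.55 ± 0.0975 in DAT against CTR (8.18e-09). CX3 was higher than DAT by 0.69 ± 0.1 (4.09e-05).

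Ifit1 encodes a protein that binds the ends of foreign RNA and blocks its translation. Ifit3 encodes a relative of that protein, and both genes are neighbours on chromosome 19. Ifit1 (ENSMUSG00000034459.8, chr19:34640871-34650009, plus strand) had 116, 121 and 114 CPM in CTR, 54.0, 53.5 and 52.1 in CX3 and 44.2, 46.7 and 43.2 in DAT. CX3 lay much nearer to DAT than to CTR, with a log2 fold change of −1.14 ± 0.0462 against CTR (adjusted p = 3.33e-10), beside −1.39 ± 0.0476 for DAT against CTR (2.08e-11) and 0.25 ± 0.0481 for CX3 against DAT (0.000411). Ifit3 (ENSMUSG00000074896.3, chr19:34583531-34588731, plus strand) had 269, 266 and 265 CPM in CTR, 141, 146 and 140 in CX3 and 88.7, 92.2 and 85.0 in DAT. Its log2 fold changes were −0.91 ± 0.0429 (CX3 against CTR, adjusted p = 1.97e-09), −1.59 ± 0.0443 (DAT against CTR, 2.35e-12) and 0.68 ± 0.0439 (CX3 against DAT, 1.04e-08). The level of Ifit3 is uncertain because 40.7% of its transcript windows of 76 bases, the read length, also occur in transcripts of Ifit3b, and only reads placed at 1 position were counted. Ifit3b moved the same way, with 107 to 114 CPM in CTR, 53.1 to 54.6 in CX3 and 38.4 to 41.2 in DAT. For Ifit1 the shared windows, with Ifit1bl2, made up 5.11%.

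Oasl2, an antiviral relative of the oligoadenylate synthetases (ENSMUSG00000029561.17, chr5:114896936-114912234, plus strand), had 163, 159 and 160 CPM in CTR, 86.0, 92.5 and 88.7 in CX3 and 55.8, 56.0 and 52.7 in DAT. The steps between groups were many times the spread within them. The log2 fold changes were −0.85 ± 0.0446 in CX3 against CTR (adjusted p = 6.41e-09), −1.55 ± 0.0466 in DAT against CTR (5.21e-12) and 0.70 ± 0.0464 in CX3 against DAT (1.45e-08).

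Rsad2, or viperin, an enzyme that makes a chain-terminating nucleotide (ENSMUSG00000020641.16, chr12:26442746-26456452, minus strand), had 42.8, 42.5 and 42.0 CPM in CTR, 17.1, 17.6 and 18.7 in CX3 and 15.1, 14.5 and 17.1 in DAT. Of the 10 genes it had the largest drop in CX3 against CTR, by 1.25 ± 0.0606 on the log2 scale (adjusted p = 2.44e-09), and in DAT against CTR it fell by 1.45 ± 0.064 (2.36e-10). CX3 and DAT were close to each other, with the lowest CX3 and the highest DAT library at 17.1 CPM when rounded. That difference, 0.19 ± 0.0671, passed narrowly (adjusted p = 0.0233), and it was lost without CX3 C (adjusted p = 0.0607) or without DAT A (0.062).

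Bst2, or tetherin, which holds budding virions at the cell surface (ENSMUSG00000046718.8, chr8:71534255-71537456, minus strand), had 76.9, 84.2 and 79.9 CPM in CTR, 67.8, 64.3 and 65.6 in CX3 and 26.2, 35.8 and 24.9 in DAT. Here CX3 stayed near CTR and DAT was far below both. The drop in CX3 against CTR, −0.29 ± 0.0899, passed narrowly (adjusted p = 0.0276) and did not pass with 1 library fewer in 4 cases, at adjusted p = 0.115 without CTR B, 0.0733 without CTR C, 0.0964 without CX3 B and 0.0773 without CX3 C. That call was lost in 6 of 18 alternatives in all. The spread used in the test is estimated over all 3 groups, so the wide DAT values enter this comparison too. Against CTR, DAT was lower by −1.48 ± 0.0974 (1.25e-08), and CX3 exceeded DAT by 1.20 ± 0.0973 (1.15e-07).

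**Figure D2:**
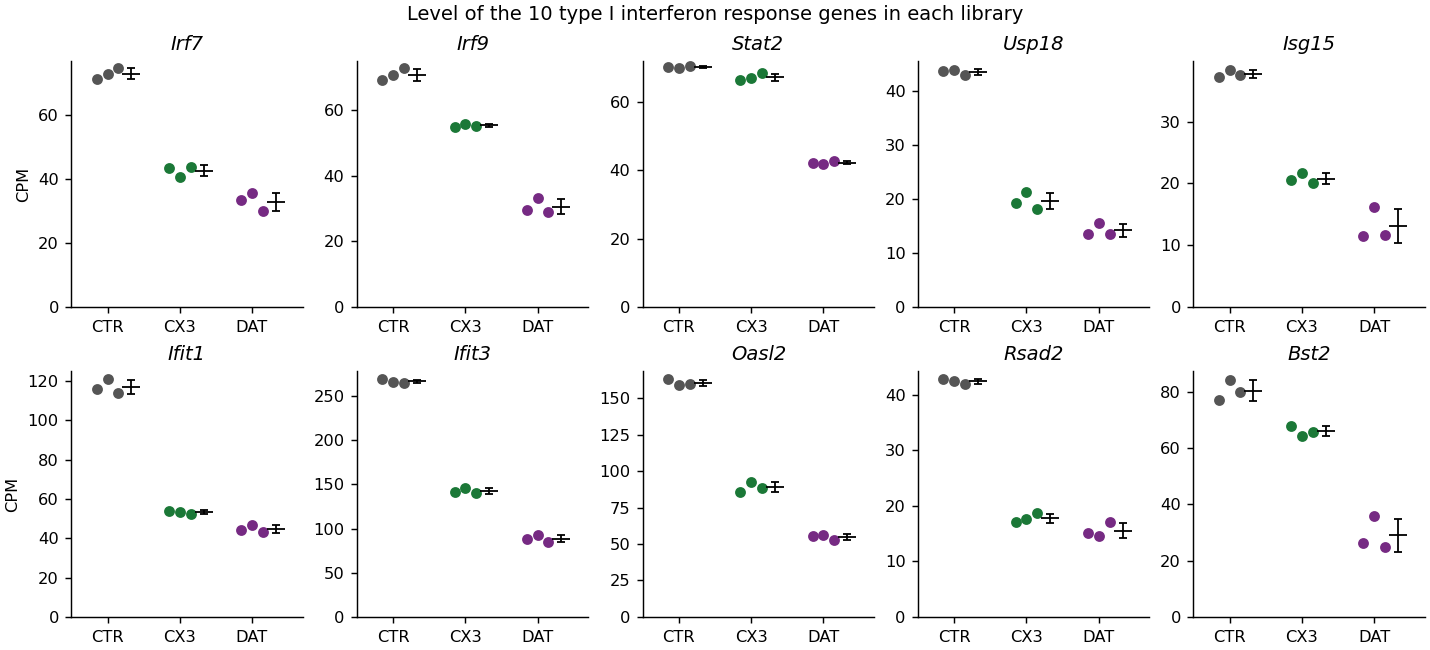
CPM of each of the 10 genes in the 9 libraries, with points for libraries A, B and C of the CTR, CX3 and DAT groups from left to right within a group, and a bar at the mean with the SD (n = 3). In each panel the CTR libraries lie highest and the DAT libraries lowest. DAT B lies above DAT A and DAT C in every gene except Stat2 and Rsad2, most clearly in Isg15 and Bst2.

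Per kilobase of exon, the level of Ifit3 in CTR was the highest of the 10 genes, at 153 CPM per kilobase, followed by Bst2 at 89, Isg15 at 49.9 and Ifit1 at 44. Rsad2 was the lowest at 9.79 CPM per kilobase, with Stat2 at 11.9 and Irf9 at 13.2. In DAT tissue the order began with Ifit3 (50.8), Bst2 (32.1) and Isg15 (17.3), and Rsad2 was again lowest (3.59).

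In CX3 against CTR, 9 of the 10 genes were called lower at an adjusted p under 0.05, against 16.5% of all genes tested, and none was called higher, against 14%. Of these, 3 genes (Ifit1, Usp18 and Rsad2) were lower by at least 2-fold, against 2.26% of all genes. In all 10, every CX3 library was below every CTR library, which held for 25.4% of the genes tested. The median log2 fold change of the 10 genes was −0.86, and that of all genes tested was 0.00.

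In DAT against CTR, 10 of 10 were called lower, against 27.9% of all genes, and none higher, against 32%. All but Stat2 were lower by at least 2-fold, against 12% of all genes. All DAT libraries were below all CTR libraries for 10 of 10 genes and for 30.6% of the genes tested. The median log2 fold change was −1.46 in the 10 genes and 0.00 over all genes, and the range ran from −1.62 (Usp18) to −0.73 (Stat2).

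In CX3 against DAT, which share the vector but not the mouse line or tamoxifen, 10 of 10 were called higher, against 27.6% of all genes, and none lower, against 31.3%. Bst2 alone was higher by at least 2-fold, against 11% of all genes. Every CX3 library exceeded every DAT library in all 10 genes, which was so for 28.8% of the genes tested. The median log2 fold change was 0.68, beside 0.01 for all genes. The 3 comparisons share libraries and are not independent of each other. When the libraries were scaled by their totals alone, the median of all genes moved to 0.04 in CX3 against CTR, −0.15 in DAT against CTR and 0.20 in CX3 against DAT, and the medians of the 10 genes moved with it to −0.81, −1.61 and 0.87. Each of the 10 genes kept its direction in each comparison under that scaling.

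**Figure D3:**
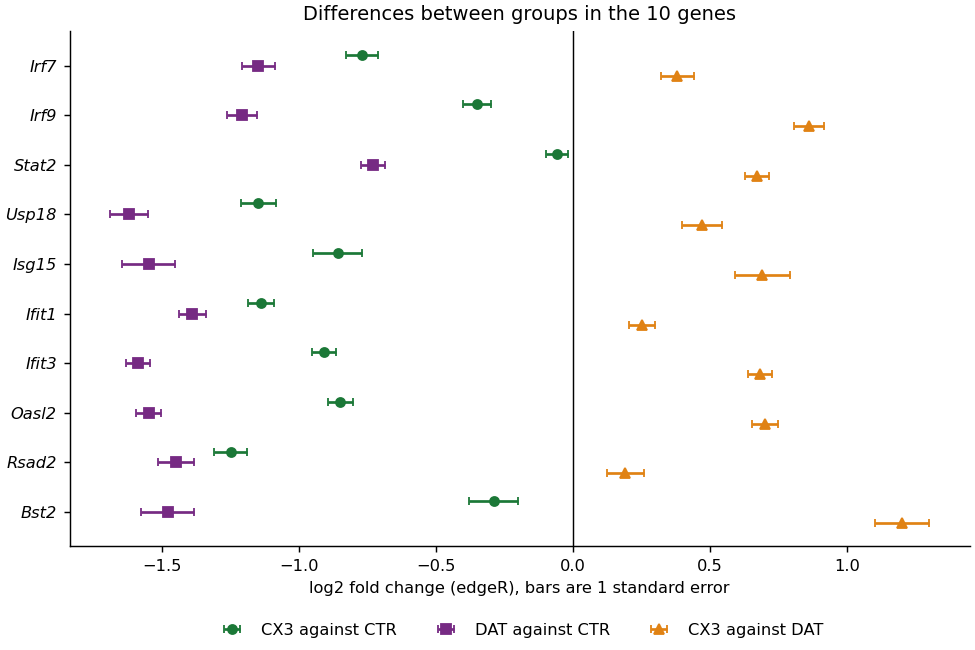
Log2 fold change of each of the 10 genes in the 3 comparisons, with bars of 1 standard error from edgeR. All 10 lie left of zero in both comparisons with CTR and right of zero in CX3 against DAT. Stat2 at −0.06 is the one value whose difference did not pass the test.

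The genes differed in where CX3 lay between the other groups. On the log2 scale CX3 had covered 8.64% of the distance from CTR to DAT in Stat2, 19.2% in Bst2 and 29.2% in Irf9. It had covered 54.9% in Oasl2, 55.7% in Isg15 and 57% in Ifit3. Irf7 (67.2%), Usp18 (70.9%), Ifit1 (81.8%) and Rsad2 (86.6%) lay nearer to DAT. The 2 complex subunits Stat2 and Irf9 were thus, with Bst2, the genes that differed least between CX3 and CTR.

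Upstream of the members, the type I interferon ligands were at the limit of detection. The 18 genes, Ifnb1 and the Ifna family among them, summed to 10 to 18 counts in a CTR library, 2 to 4 in a CX3 library and 0 to 7 in a DAT library, and none passed the filter for testing. Ifnb1 had 6, 1 and 1 counts in CTR, 0, 1 and 1 in CX3 and 0, 1 and 0 in DAT. Ifna6 and Ifne were at 0 in all 9 libraries. The Ifna genes are near-identical copies, so that reads shared between them were not counted. No fold is given for levels near 3 counts.

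Of the 4 genes of the receptor and its kinases, 1 was called higher and 1 lower in CX3 against CTR, and 1 higher and 2 lower in DAT against CTR. Over all genes tested, 14% were called higher and 16.5% lower in CX3 against CTR, and 32% higher and 27.9% lower in DAT against CTR. A list of 4 genes is too short to be set apart from these shares, which also apply to the pathway lists that follow. Ifnar1 had 44.0 to 46.2 CPM in CTR, 47.6 to 52.0 in CX3 and 43.1 to 49.8 in DAT, and was higher in CX3 by 0.17 ± 0.0582 (adjusted p = 0.0431). That call was lost in 12 of 18 alternatives, and without CTR A, CTR B, CTR C, CX3 B, CX3 C or DAT C the adjusted p was 0.061 to 0.147. Ifnar2 was lower in DAT by −0.41 ± 0.0738 (0.000252), and its value in CX3 against CTR was −0.08 ± 0.0694 (0.453). Jak1 was lower in CX3 (−0.44 ± 0.0528, adjusted p = 2.88e-05) and higher in DAT (0.18 ± 0.0527, 0.00985). The latter was lost in 9 of 18 alternatives. It was 0.03 under scaling by library totals, and it was lost without CTR A, CTR C, DAT A or DAT C (adjusted p between 0.0637 and 0.0837). Tyk2 was lower in DAT (−0.32 ± 0.077, 0.00259) and had 0.16 ± 0.0719 in CX3 against CTR (0.106).

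Of the other transcription factors of the pathway, those best known from the response to interferon-gamma went the other way in CX3. Irf1, an early target of interferon-gamma, had 37.6 to 41.7 CPM in CTR, 69.0 to 76.6 in CX3 and 13.8 to 15.5 in DAT, and rose by 0.87 ± 0.0583 in CX3 against CTR (adjusted p = 8.27e-08). Irf8, a factor of myeloid cells, rose by 0.74 ± 0.0616 (8.45e-07). Irf3, a factor activated by the sensors of infection, was lower by −0.20 ± 0.0675 (0.0397), which was lost without CTR A, CTR B, CTR C, CX3 B or CX3 C (adjusted p between 0.0718 and 0.158), and Irf5 had 0.08 ± 0.0763 (0.459). In DAT against CTR all 4 of these factors were called lower, from −1.47 ± 0.0676 for Irf1 (3.4e-10) to −0.47 ± 0.0709 for Irf3 (5.73e-05).

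A list of 12 genes associated with interferon-gamma, the type II interferon made by T cells and natural killer cells, moved the other way in CX3. In CX3 against CTR, 9 of the 12 were called higher, 1 lower and 2 not, with a median log2 fold change of 0.55. Igtp, an immunity-related GTPase, had 177 to 185 CPM in CTR, 303 to 306 in CX3 and 30.8 to 32.3 in DAT. Ciita, the master regulator of MHC class II, rose by 1.59 ± 0.0913 in CX3 (adjusted p = 1.66e-08), the T-cell chemokine Cxcl9 by 0.83 ± 0.0611 (2.37e-07) and the guanylate-binding protein gene Gbp2 by 0.57 ± 0.0429 (2.76e-07). Ifngr1, a subunit of the receptor for interferon-gamma, was the gene that was lower, at −0.54 ± 0.0512 (3e-06). The ligand Ifng had 8 to 13 counts in a CTR library, 39 to 46 in a CX3 library and 1 to 4 in a DAT library, and 25.9% of its exon bases overlap Gm49751, a gene of the same strand. Igtp shares 8.01% with Irgm2.

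In DAT against CTR, 9 of these 12 genes were called lower, 1 higher and 2 not, with a median of −1.92. Igtp fell by 2.52 ± 0.0442 (adjusted p = 2.31e-14), Irgm1, of the same GTPase family, by 2.33 ± 0.042 (2.6e-14), and Cxcl9 by 2.31 ± 0.0788 (2.06e-11). Nos2, with 0.522 to 0.967 CPM in CTR and 1.01 to 1.18 in DAT, was the gene called higher (0.69 ± 0.277, 0.044), a call lost in 12 of 18 alternatives, with adjusted p of 0.0618 to 0.187 without CTR A, CTR B, CX3 C, DAT A or DAT C. The difference between the 12 genes and the 10 in their response was not tested.

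Most targets of type I interferon outside the 10 genes were lower too. Of 11 paralogs of the members, 9 were called lower and none higher in CX3 against CTR (median −0.98), and 10 lower and none higher in DAT against CTR (median −1.56). Among the oligoadenylate synthetases, which activate RNase L, Oas3 fell by 1.90 ± 0.0934 in CX3 (adjusted p = 3.07e-09), Oasl1 by 1.54 ± 0.113 (2.21e-07), Oas2 by 1.33 ± 0.0857 (5.84e-08) and Oas1a by 1.15 ± 0.0817 (1.54e-07). In DAT against CTR, Oas1g fell by 2.60 ± 0.131 (8.74e-10) and Oas2 by 2.29 ± 0.0998 (2.08e-10). The Oas genes are close copies of each other, and their levels are uncertain for that reason.

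Of 38 other interferon-stimulated effectors, 37 were tested, and Trex1, whose exons lie wholly within those of Atrip, was listed at 0 in all libraries. In CX3 against CTR, 33 were called lower, none higher and 4 not (median −0.55). The dynamin-like GTPase gene Mx1 fell by 1.27 ± 0.0795 (adjusted p = 4.3e-08), Lgals3bp by 1.20 ± 0.0465 (1.95e-10), Ifi44 by 1.18 ± 0.06 (4.28e-09) and the exonuclease gene Isg20 by 1.12 ± 0.0897 (5.24e-07). In DAT against CTR, 34 were called lower, 1 higher and 2 not (median −1.55), with Ifi204 at −2.30 ± 0.0855 (4.32e-11) and Phf11b at −2.29 ± 0.0923 (9.88e-11). Adar, which edits double-stranded RNA, was the exception, with 95.2 to 97.1 CPM in CTR and 170, 129 and 160 in DAT A, B and C (0.67 ± 0.079, 5.13e-06). Adar shares 16.8% of its exon bases with Chrnb2 on the opposite strand.

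The 3 enzymes that attach Isg15 were called lower in DAT against CTR, with Herc6, the ligase, at −1.77 ± 0.0607 (adjusted p = 2.08e-11), the activating enzyme Uba7 at −1.66 ± 0.0843 (9.73e-10) and the conjugating enzyme Ube2l6 at −1.51 ± 0.0667 (2.31e-10). In CX3 against CTR, Herc6 (−0.67 ± 0.054, 5.51e-07) and Ube2l6 (−0.33 ± 0.0589, 0.000693) were lower, and Uba7 had −0.17 ± 0.0725 (0.0879).

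Of 13 sensors and adaptors of nucleic acids, 7 were called lower and none higher in CX3 against CTR (median −0.35), against 16.5% and 14% of all genes. In DAT against CTR, 10 were called lower and none higher (median −0.93), against 27.9% and 32%. The RNA sensors Ddx58, which encodes RIG-I, and Ifih1, which encodes MDA5, fell in CX3 by 1.05 ± 0.0597 (adjusted p = 1.5e-08) and by 1.00 ± 0.0756 (3.08e-07). Tlr7, an endosomal receptor for RNA, fell by 0.91 ± 0.0727 in CX3 (5.53e-07) and by 1.91 ± 0.0843 in DAT (2.25e-10), and Trim25, the ubiquitin ligase that acts on RIG-I, fell by 0.49 ± 0.0637 in CX3 (5.71e-05). Zbp1, a sensor of Z-form nucleic acids, fell by 2.55 ± 0.0941 in DAT (3.98e-11), and its value in CX3 against CTR was −0.14 ± 0.0737 (0.184).

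Of 5 negative regulators, 2 were called higher and 2 lower in CX3 against CTR (median 0.12), and 4 lower in DAT against CTR (median −0.41), of which Pias1 was lost without CTR A, CTR C or DAT A (adjusted p between 0.0561 and 0.0703). Over all genes tested, 14% were called higher and 16.5% lower in CX3 against CTR, and 27.9% lower in DAT against CTR. Socs1, an inhibitor of the receptor kinases, had 3.80 to 4.31 CPM in CTR, 9.71 to 10.7 in CX3 and 2.76 to 3.92 in DAT, and rose by 1.35 ± 0.11 in CX3 (adjusted p = 6.26e-07). Socs3, which acts mainly on cytokine receptors of the gp130 family, rose by 0.39 ± 0.0885 (0.00403) in CX3 and fell by 0.66 ± 0.101 in DAT (6.64e-05). The phosphatase gene Ptpn6 was lower in both, by −0.35 ± 0.0559 (0.000357) and −1.46 ± 0.0632 (1.88e-10), and Pias1, an inhibitor of the signalling cascade, was lower in CX3 by −0.30 ± 0.0503 (0.000447). For type III interferon, the ligands had at most 5 counts in a library, and the receptor gene Ifnlr1 had 0.604 to 0.723 CPM in CTR and 1.06 to 1.24 in CX3. In DAT A, B and C it had 1.62, 0.704 and 0.878 CPM. Its difference in DAT against CTR was 0.78 ± 0.292 (adjusted p = 0.0336), with 0.24 ± 0.287 (0.508) without DAT A and adjusted p of 0.0612 to 0.112 without CTR A, B or C. Its difference in CX3 against CTR was 0.78 ± 0.278 (0.0478), with adjusted p of 0.052 to 0.149 without any 1 of the CTR or CX3 libraries or DAT C.

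**Figure D4:**
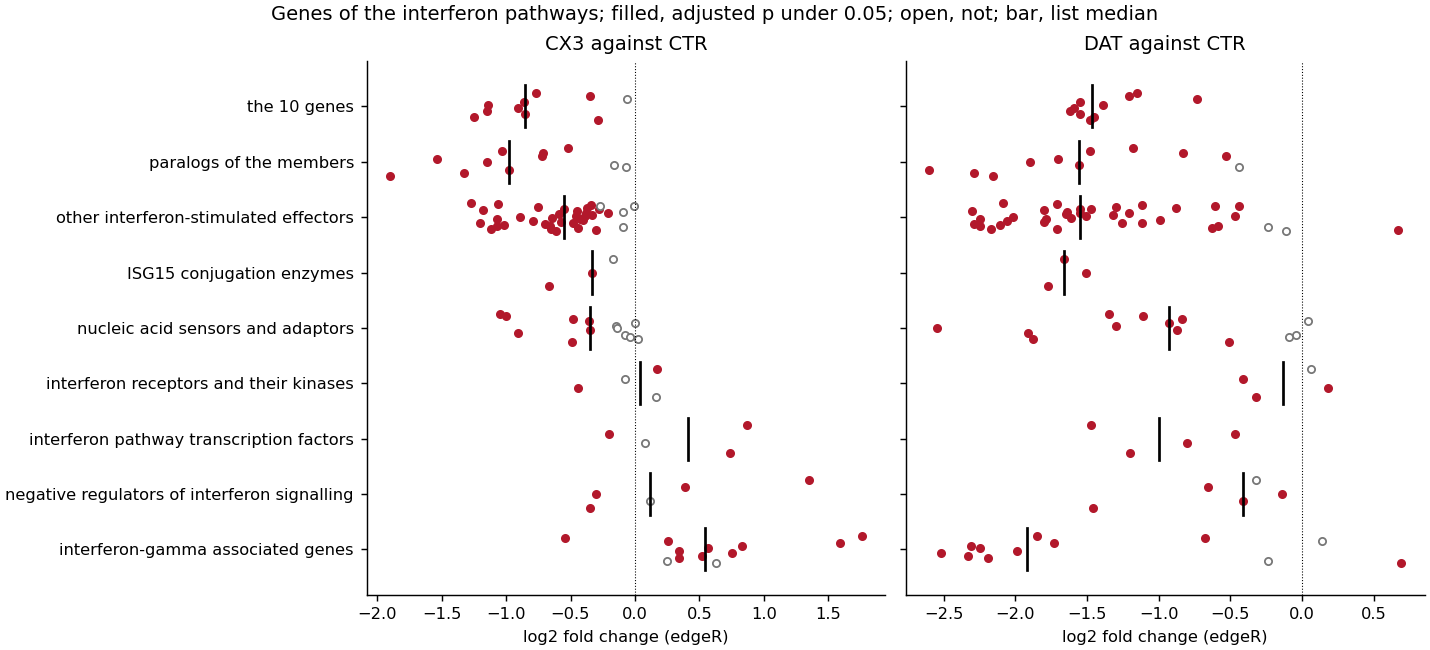
Log2 fold change of each tested gene in the 10 genes and in 8 lists of the interferon pathways, for CX3 against CTR on the left and DAT against CTR on the right, with filled points for an adjusted p under 0.05, open points for the rest and a bar at the list median. The interferon-gamma associated genes lie mainly right of zero in CX3 against CTR (median 0.55) and left of it in DAT against CTR (median −1.92), while the 10 genes lie left in both.

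The genes most alike in pattern to the 10 were sought among 16261 genes of at least 1 CPM, by Pearson's r of log2 CPM with the mean standardized log2 CPM of the 10 genes over 9 libraries. The libraries fall into 3 groups, so that r mainly reflects the order of the groups, and it carries no p. The 8 genes with the highest r were Igkc (0.998), Igha (0.998), Ighg2b (0.997), Ighg2c (0.997), Ly6c2 (0.997), Iglc1 (0.997), Igkv4-68 (0.997) and Tlr2 (0.996). Of these, 6 encode parts of antibodies, made by plasma cells and B cells, Ly6c2 marks inflammatory monocytes and other leukocytes, and Tlr2 is a receptor for bacterial lipoproteins on myeloid cells. The immunoglobulin light chain gene Igkc went from a mean of 1055 CPM in CTR to 167 in CX3 and 25.8 in DAT, and Tlr2 from 28.6 to 17.5 and 10.4. Outside the members, 309 genes had an r of at least 0.95. Among the members r ranged from 0.88 in Stat2 to 0.998 in Ifit3 and Oasl2. Each member is part of the mean it is compared with, which raises its r, so these values cannot be set beside those of other genes.

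Markers of several cell types moved with the groups, and their part in the results on the 10 genes was not tested. Beside the counts for each marker list stand the shares over all genes tested. These were 16.5% lower and 14% higher in CX3 against CTR, and 27.9% and 32% in DAT against CTR. In CX3 against DAT they were 31.3% lower and 27.6% higher. The 7 markers of B and plasma cells summed to 310 to 328 CPM in CTR, 77.5 to 81.9 in CX3 and 15.6 to 19.4 in DAT, with 7 called lower in CX3 and 6 in DAT against CTR. The 6 markers of monocytes and neutrophils summed to 51.8 to 52.2, 25.8 to 26.7 and 6.94 to 7.44 CPM, and of the 5 tested 3 were lower and 1, Ccr2, higher in CX3, and 5 lower in DAT. Most of these sums came from Jchain, with 292 to 309 CPM in CTR, and Ly6c2, with 38.1 to 39.8. Of the 7 markers of B and plasma cells, 2 were called higher and 1, Sdc1, lower in CX3 against DAT. Ccr2 had 3.37 to 4.26 CPM in CTR, 8.55 to 10.7 in CX3 and 2.02 to 2.31 in DAT, and Plac8 had 6.10 to 7.90, 6.75 to 7.31 and 1.56 to 2.11. The 8 markers of T cells summed to 61.7 to 61.9 CPM in CTR, 49.5 to 52.6 in CX3 and 15.4 to 18.2 in DAT (5 lower in CX3, 8 in DAT). The 6 markers of plasmacytoid dendritic cells, the main producers of type I interferon, summed to 35.8 to 37.7, 33.8 to 34.4 and 22.9 to 27.5 CPM, of which 2 of 5 tested were lower in CX3 and 4 in DAT. Most of that sum was Siglech, with 25.6 to 26.6 CPM in CTR, 27.1 to 27.7 in CX3 and 18.0 to 22.4 in DAT. Ly6d, a smaller part of it, had 3.65 to 4.27, 0.781 to 1.51 and 0.201 to 0.834 CPM. The sum thus follows mainly a single gene and is not a measure of how many of these cells the tissue held. Whether Siglech came from these cells or from others in this tissue was not tested.

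Among cells of the brain, the 8 markers of microglia summed to 756 to 763 CPM in CTR, 515 to 522 in CX3 and 506 to 524 in DAT. Of these markers 6 were lower in CX3 and 7 in DAT against CTR, and in CX3 against DAT 4 were called higher and 2 lower. Aif1 had 27.8 to 32.9 CPM in CX3 and 10.3 to 12.5 in DAT (1.42 ± 0.0791, adjusted p = 2.47e-09), and Cx3cr1 had 43.6 to 45.3 and 78.5 to 86.2 (−0.90 ± 0.0484, 1.63e-09). The line name in the paper places the recombinase allele of the CX3 and CTR mice at Cx3cr1, which is not so for DAT mice. In CTR, Cx3cr1 had 101 to 103 CPM. The effect of that allele on Cx3cr1 was not tested. The 6 astrocyte markers summed to 5625 to 5640 CPM in CTR, 3329 to 3580 in CX3 and 3572 to 3873 in DAT, and all 6 were lower in CX3 and 3 in DAT. The 6 markers of dopaminergic neurons summed to 418 to 420 CPM in CTR, 595 to 601 in CX3 and 356 to 360 in DAT. Of these, 4 were called higher in CX3 against CTR, and 1 higher and 3 lower in DAT against CTR. Slc6a3, which is among them, had 128 to 133 CPM in CTR, 193 to 198 in CX3 and 88.3 to 93.3 in DAT. The name that the paper gives for the DAT-Cre line places its recombinase allele at Slc6a3. The effect of that allele on this marker was not tested.

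Genes of tissue outside the nigra differed more. The 6 choroid plexus markers, led by the transthyretin gene Ttr, summed to 46.5 to 47.5 CPM in CTR, 1475 to 1584 in CX3 and 874 to 1044 in DAT, and rose in 5 of 6 in both other groups. Ttr itself had 19.4 to 20.8 CPM in CTR, 1411 to 1520 in CX3 and 794 to 966 in DAT. The 5 pituitary markers summed to 57.6 to 60.2 CPM in CTR, 3.10 to 3.38 in CX3 and 15.3 to 21.1 in DAT. Most of the DAT sum was Pomc, with 17.6 to 18.3 CPM in CTR, 2.62 to 2.84 in CX3 and 15.1 to 20.9 in DAT (−0.06 ± 0.0976 in DAT against CTR, adjusted p = 0.588). The growth hormone gene Gh had 33.6 to 35.8 CPM in CTR and at most 0.312 CPM in the 6 other libraries, and Prl was at 0 in all DAT libraries.

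**Figure D5:**
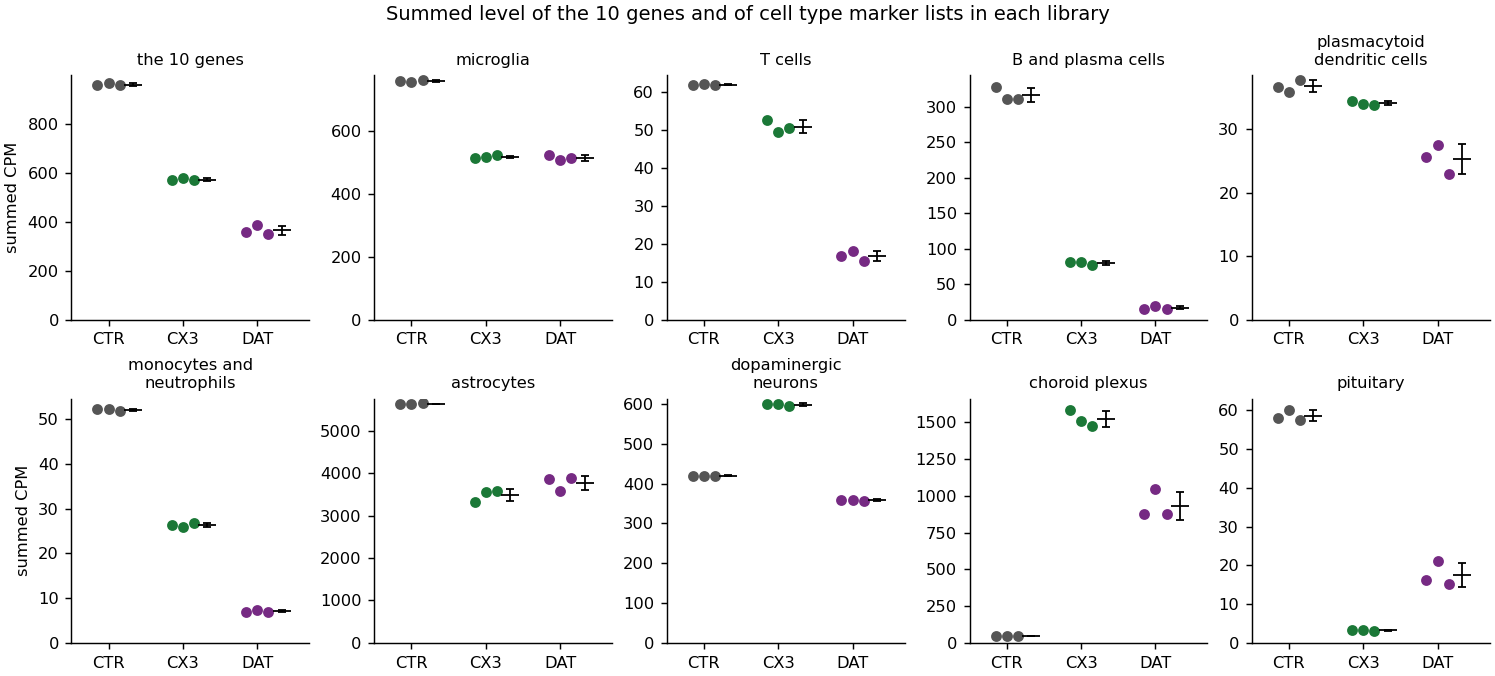
Summed CPM of the 10 genes and of 9 marker lists in each library, with points for libraries A, B and C from left to right within a group and a bar at the mean with the SD (n = 3). The 10 genes step down from CTR to CX3 to DAT, as do the sums of the markers of B and plasma cells, T cells and monocytes, though not each marker in them.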

How the data were processed

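Sequencing libraries of dissected substantia nigra were made with a stranded mRNA kit from 1 μg of RNA and read in 76 bases. The authors deposited counts of uniquely placed reads per gene for each of the 9 libraries, without normalization, on the mm10 build (GRCm38). The processing notes name Trimmomatic, STAR, featureCounts and DESeq2, whereas the tables are arranged as the gene count output that STAR writes. The reverse strand held 49.8 to 49.9% of strand-specific counts, so counts of both strands together were used. Rows without a gene were left out, and unmapped reads made up 13.8 to 22% of reads.

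All 9 libraries entered 1 fit with edgeR 4.0.16 in R 4.3.3, with TMM scaling, filtering by group and the quasi-likelihood test without covariates, and p-values were adjusted by Benjamini-Hochberg over 20892 genes. A gene was called at an adjusted p under 0.05. The script was tested on simulated data. It missed the share of recovered genes first required of it, because genes under 1 CPM were often not recovered, and the requirement was then reset, with that result known, to genes of at least 1 CPM. False calls in the simulation were somewhat above the nominal share, which bears on calls close to the threshold. The simulation gave all libraries the same spread and held no library that stood apart, as DAT B did. It therefore does not give the rate of false calls in these data. SE is the absolute log2 fold change divided by the square root of F. The adjusted p for the 10 genes is that over all genes. Alternatives used DESeq2 1.42.0, and the alike pattern was computed with a pseudocount of 0.01 CPM in Python 3.11.15. The floor of 3 counts covers counting error only. Groups came from the labels.

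The members and the 19 gene lists were chosen with earlier results of these data known. Of these lists, 1 gene is not reported here. Named genes were all members, receptors, kinases, factors and conjugation enzymes. Of each other pathway list, the 4 genes with the largest absolute change in CX3 against CTR and the 2 in DAT against CTR among those called with a mean of at least 1 CPM were named, with genes called against the median of their list. Ifit3b, Ifng, Trex1, Ifnlr1 and the marker genes were named after their values were seen.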

Additional observations from a re-analysis of the deposited data

How the results depend on the processing

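The 10 genes kept their direction in all 540 values under the alternatives tried (DESeq2's test and size factors, scaling by totals, no filter, either strand alone, a replicate block, 2 groups alone, a test against a 1.5-fold change, and each library left out), and 14 values were no longer past the threshold. Counts of lower calls and the values of genes outside the 10 were added after seeing the data. The letters A, B and C did not pair the libraries (correlation of deviations −0.332 to 0.114, above 0.1 in 1 of 9 pairs), and 2 of the 9 libraries were closest to their own letter in both other groups. The replicate block left the counts of members called unchanged, at 9 lower in CX3 against CTR, 10 lower in DAT against CTR and 10 higher in CX3 against DAT. The counts of all genes called lower became 3151, 5615 and 6398 in these comparisons, and those called higher 2654, 6529 and 5557.

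Scaled by totals alone, members at least 2-fold higher in CX3 than DAT became 2 (Irf9 joined Bst2), 8 were called lower in CX3 against CTR (Bst2 at adjusted p = 0.0568), and all genes called higher in CX3 against DAT numbered 8916 against 4444 lower (5767 and 6544 before). For DAT against CTR the calls became 4890 higher and 8045 lower (6686 and 5834 before), and for CX3 against CTR 3958 and 2766 (2923 and 3444 before). Against a 1.5-fold change, 5 members were called higher in CX3 against DAT, 7 lower in CX3 against CTR and 10 lower in DAT against CTR. All genes called were then 173 higher and 356 lower in CX3 against CTR, 1532 and 2241 in DAT against CTR, and 2074 and 1706 in CX3 against DAT. Without each library in turn, members called lower were 8 to 9 in CX3 against CTR and 10 in DAT against CTR, members called higher in CX3 against DAT were 9 to 10, and all genes called higher were 2014 to 4209, 5837 to 6829 and 5210 to 6565 in the 3 comparisons. All genes called lower were 2624 to 4379, 5287 to 6560 and 5929 to 6689.

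Among the 39 named genes outside the 10, 12 values changed sign, none of them past the threshold. Ifnar1 in DAT against CTR was −0.0842 with scaling by totals, −0.0231 and −0.0071 with the reverse and forward strand and −0.00945 to 0.113 without single libraries. In CX3 against DAT, Pias1, at −0.17 (adjusted p = 0.012) before, was 0.0275 with scaling by totals. There Lgals3bp was 0.111 with scaling by totals and 0.0112 with the reverse strand, and Nos2 was 0.126 with scaling by totals and 0.0934 with the forward strand. Without single libraries, Nos2 ranged from −0.245 to 0.0811, and Trim25 from −0.0493 (without DAT B) to 0.108. The causes were not tested. DAT B had the fewest counts, 21592817, and ligand genes lie below what this depth can compare.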
